A study of Drosophila melanogaster with 6 samples.

Results

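Arc1 (FBgn0033926) and Arc2 (FBgn0033928) are neighbouring genes of Drosophila melanogaster, and they are 2 of the 16428 genes with exon counts in these mRNA-Seq data from the indirect flight muscle (IFM). They were chosen by name, after Arc1 had been seen to be high in the libraries labelled SF1-IR. The counts in all 3 groups were therefore used in the choice, so the levels and fold changes of both genes are given as a description and without a p-value.

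Both genes descend from the Gag gene of an LTR retrotransposon, the gene that encodes the shell of a retrovirus-like particle. Arc1 protein assembles into capsid-like particles that carry Arc1 mRNA, and at the larval neuromuscular junction these particles pass from the motor neuron terminal to the muscle, a transfer that depends on the Arc1 3′-UTR. Arc1 is also known from the fly brain as a gene induced by neuronal activity and needed for the behavioural response to starvation. Arc2 encodes a shorter, closely related protein, and its mRNA lacks the long 3′-UTR.

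Poly A-selected mRNA of dissected IFM at 72 h after puparium formation (APF) was sequenced in 6 libraries, 2 replicates for each of SF1-IR, Hrb87F-IR and WT. SF1-IR muscle was Mef2-Gal4 over the SF1 hairpin GD5176, Hrb87F-IR muscle was Mef2-Gal4 over the Hrb87F hairpin TRiP.JF01757, and WT muscle carried Mef2-Gal4 without a hairpin, from a cross to w1118. All flies were kept at 27 °C. Mef2-Gal4 is active in all muscles, so the knockdown was not limited to the IFM, each hairpin is 1 line, and each library pooled the IFM of many pupae. SF1 binds the branch point of introns during early spliceosome assembly, and Hrb87F is an hnRNP of the A/B family.

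The targeted genes were read first as a check of the labels. Levels are given as CPM, the counts of a gene scaled to a common library size with TMM factors. SF1 had 25.6 and 19.3 CPM in SF1-IR, against 24.6 and 29.9 CPM in WT. These groups overlapped, and the log2 fold change was -0.28 ± 0.17 (SE; adjusted p = 0.473). A fall of SF1 mRNA was thus not shown in these counts, and within them the name SF1-IR rests on the labels alone. Hrb87F had 14.8 and 18.1 CPM in Hrb87F-IR, compared with 29.8 and 30.5 CPM in WT. Its log2 fold change of -0.87 ± 0.13 did not pass the threshold of an adjusted p under 0.01 either (adjusted p = 0.0347), although the groups did not overlap. Only 0.0596% of all genes passed in that comparison. In 9 alternative settings that left out no library, Hrb87F was called lower in 3 and SF1 in 0. Exon-bin counts totalled 63393347 to 72057010 per library. The WT values of these counts did not match those of a second deposited table, of counts per gene, so fold changes over WT are also given from that table. Marker genes of other cells were present in every group: 9 neuronal markers summed to 616 and 809 CPM as the lowest and highest SF1-IR library, 756 and 772 CPM in Hrb87F-IR, compared with 576 and 637 CPM in WT.

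On BDGP6.22, Arc1 lies on 2R:14357927-14360297 on the minus strand and Arc2 on 2R:14361924-14362825 on the plus strand, so the genes point away from each other, with 1627 bases between their starts. Each has 1 annotated transcript with 1 exon and no intron. The Arc1 transcript of 2371 bases has a 5′-UTR of 97 bases, a coding sequence of 254 codons and a 3′-UTR of 1509 bases, which is 63.6% of its length. The Arc2 transcript of 902 bases has a 5′-UTR of 116 bases, 193 codons and a 3′-UTR of 204 bases, or 22.6% of its length. Because each gene was counted as 1 exon bin, exon use could not be compared within either of them.

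Arc1 mRNA was abundant in the libraries labelled SF1-IR and scarce in the other 4. Its exon bin held 25133 and 29393 counts in SF1-IR, 382 and 590 in Hrb87F-IR, compared with 634 and 649 in WT. In CPM this came to 359 and 373 in SF1-IR (366 ± 9.86, SD, n = 2), 5.82 and 8.11 in Hrb87F-IR (6.96 ± 1.62), compared with 9.54 and 11.9 in WT (10.7 ± 1.70). The SF1-IR replicates differed by 1.04-fold, and the lower of them was 30.1 times the highest of the other 4 libraries. By CPM, Arc1 ranked 308 and 293 of 11753 tested genes in the SF1-IR libraries, 5532 and 4896 in Hrb87F-IR, compared with 4492 and 4015 in WT.

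The fold change of Arc1 was 34.1 in SF1-IR over WT, a log2 fold change of 5.09 ± 0.21 (SE), or 2.79 from the counts per gene. In Hrb87F-IR over WT it was 0.650, a log2 fold change of -0.62 ± 0.18, or -2.95 from the counts per gene. Both Hrb87F-IR libraries lay below both WT libraries, with a gap that was smaller than the spread within either pair. Between the knockdowns, the log2 fold change in SF1-IR over Hrb87F-IR was 5.71 ± 0.21. The comparisons of the knockdowns with WT share the WT libraries. Among the 8741 genes with a mean of at least 1 CPM, Arc1 stood 6th by its rise in SF1-IR over WT and 4th by its rise in SF1-IR over Hrb87F-IR. Among all 11753 tested genes it stood 41st and 75th.

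Arc2 followed the same order for SF1-IR at a lower level. Its exon bin held 1580 and 2010 counts in SF1-IR, 78 and 110 in Hrb87F-IR, compared with 24 and 58 in WT. In CPM, Arc2 reached 22.6 and 25.5 in SF1-IR (24.0 ± 2.07, SD, n = 2), 1.19 and 1.51 in Hrb87F-IR (1.35 ± 0.23), compared with 0.361 and 1.07 in WT (0.714 ± 0.499). The lower SF1-IR library was 14.9 times the highest other library, and no library of another group came near it. The WT libraries differed from each other by 2.96-fold, far more than the replicates of the knockdowns, at 1.13-fold in SF1-IR and 1.27-fold in Hrb87F-IR.

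The log2 fold change of Arc2 was 5.09 ± 0.53 in SF1-IR over WT, which is a 34.0-fold difference, or 3.29 from the counts per gene. In Hrb87F-IR over WT it was 0.93 ± 0.48, but -0.87 from the counts per gene, and the sign was opposite to that of Arc1 in the exon bins only. The difference between 1.19 CPM in the lower Hrb87F-IR library and 1.07 CPM in the higher WT library was smaller than the difference within WT, and the value was 0.34 without WT replicate 1 and 1.92 without WT replicate 2. In SF1-IR over WT, Arc2 had 4.49 without WT replicate 1 and 6.11 without WT replicate 2. In SF1-IR over Hrb87F-IR the log2 fold change was 4.15 ± 0.50, with no WT library in the comparison.

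**Figure D1:**
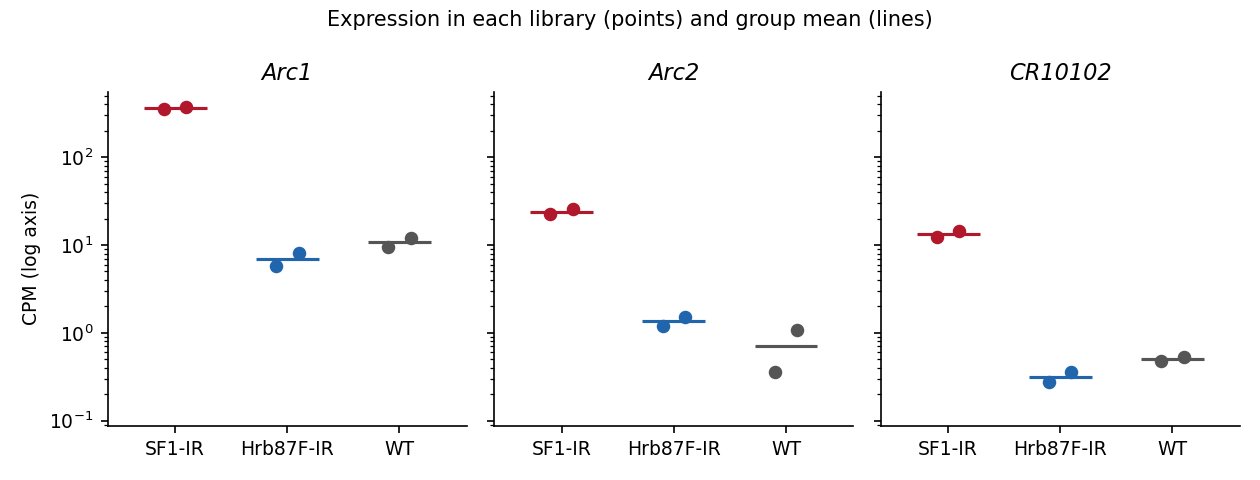
CPM of Arc1, Arc2 and CR10102 on a log axis, by group; points are the 2 libraries of each group and lines are group means. For each gene both SF1-IR libraries stand above the other 4, from 359 to 373 CPM for Arc1 and from 22.6 to 25.5 CPM for Arc2, and the WT libraries of Arc2 are the most spread pair.

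Per kilobase of transcript, Arc1 was the more abundant of the pair in every library. Arc1 had 151 and 157 CPM per kb in SF1-IR, where Arc2 had 25.02 and 28.3. In Hrb87F-IR, Arc1 had 2.45 and 3.42 CPM per kb and Arc2 had 1.317 and 1.68. In WT, Arc1 had 4.02 and 5.04 CPM per kb and Arc2 had 0.400 and 1.18. The ratio of the Arc1 level to the Arc2 level per kb was 6.05 and 5.56 in SF1-IR, 1.86 and 2.04 in Hrb87F-IR, compared with 10.05 and 4.26 in WT. The ratio was thus lowest in both Hrb87F-IR libraries, while in the exon bins the SF1-IR libraries lay within the range of WT. In the table of counts per gene the ratio was 5.87 and 5.38 in SF1-IR, 1.78 and 1.95 in Hrb87F-IR, compared with 9.26 and 7.47 in WT, so that SF1-IR there lay below both WT libraries.

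CR10102 (FBgn0033927), annotated as a pseudogene, occupies the interval between the pair at 2R:14360433-14361780 on the minus strand. It lies 135 bases from the 5′ end of Arc1 and 143 bases from the 5′ end of Arc2, and it was named here after its values had been seen. Its 1348-base exon bin held 873 and 1151 counts in SF1-IR, 18 and 26 in Hrb87F-IR, compared with 32 and 29 in WT. In CPM these were 12.5 and 14.6 in SF1-IR, 0.274 and 0.357 in Hrb87F-IR, compared with 0.481 and 0.534 in WT, a log2 fold change of 4.73 ± 0.25 in SF1-IR over WT. The Arc1 level per kb was 11.3 to 16.4 times that of CR10102 across the 6 libraries, so the reads of the interval followed those of Arc1 within a narrow range.

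The separate table of counts per gene gave CR10102 far fewer reads. There it had 9 and 11 counts in SF1-IR and 0 in each of the other 4 libraries. The exon-bin count was thus 97.0 and 105 times the count per gene in SF1-IR, while this ratio was 2.07 and 2.08 for Arc1 and 2.01 in both libraries for Arc2. CR10102 may share sequence with Arc1 and Arc2, and reads of near-identical copies or read pairs that span 2 genes can be counted differently in the 2 tables. Its level is therefore uncertain, and the part of neighbouring genes in it was not tested.

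In the exon bins, none of the nearest genes on either side passed the threshold in SF1-IR over WT. On one side, CG8617, which lies 645 bases from the 3′ end of Arc1, had 2.21 and 3.03 CPM in SF1-IR, against 3.08 and 2.93 CPM in WT. On the other side Tfb1, a subunit gene of the general transcription factor TFIIH that starts 222 bases beyond Arc2, had 12.6 and 14.005 CPM in SF1-IR, against 14.2 and 12.1 CPM in WT. In both cases the groups overlapped, with log2 fold changes of -0.20 ± 0.33 and 0.02 ± 0.15 (adjusted p = 0.908 for CG8617 and 0.998 for Tfb1). CG8613 and Shrm, the next genes on the Arc1 side, had log2 fold changes of 0.33 ± 0.10 and 0.22 ± 0.11 (adjusted p = 0.124 and 0.369). Beyond Tfb1, Dh44-R1, a receptor of the diuretic hormone Dh44, had 0.51 ± 0.49, and CG30075 had almost no reads, with 0 to 0.331 CPM in the 6 libraries. From the counts per gene, the log2 fold changes in SF1-IR over WT were -1.02 for CG8617, -0.36 for Tfb1, 0.98 for CG8613, -0.71 for Shrm and 1.70 for Dh44-R1, with adjusted p between 0.0268 and 0.139.

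Within 100 kb of the pair, 18 other genes were tested. Their log2 fold changes in SF1-IR over WT ran between -1.10 and 0.72 with a median of -0.01, and none of the 18 passed the threshold, against 2.68% of all genes tested. In Hrb87F-IR over WT the same 18 genes had a median of 0.01, and none passed, against 0.0596% of all genes. In SF1-IR over Hrb87F-IR their median was -0.02 and again none passed, against 2.13% of all genes. An unadjusted p under 0.05 was found for 3, 0 and 3 of the 18 genes in these comparisons, and DESeq2 called 0, 0 and 2, against 8.98%, 4.66% and 8.43% of all genes. From the counts per gene, 16 of the 18 genes were tested, and 0 were called in SF1-IR over WT (range -1.02 to 1.70), against 8.61% of all genes, while Shrm (-1.15, adjusted p = 0.00879) and conv, named after its call had been seen, were called in Hrb87F-IR over WT, against 6.19% of all genes.

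**Figure D2:**
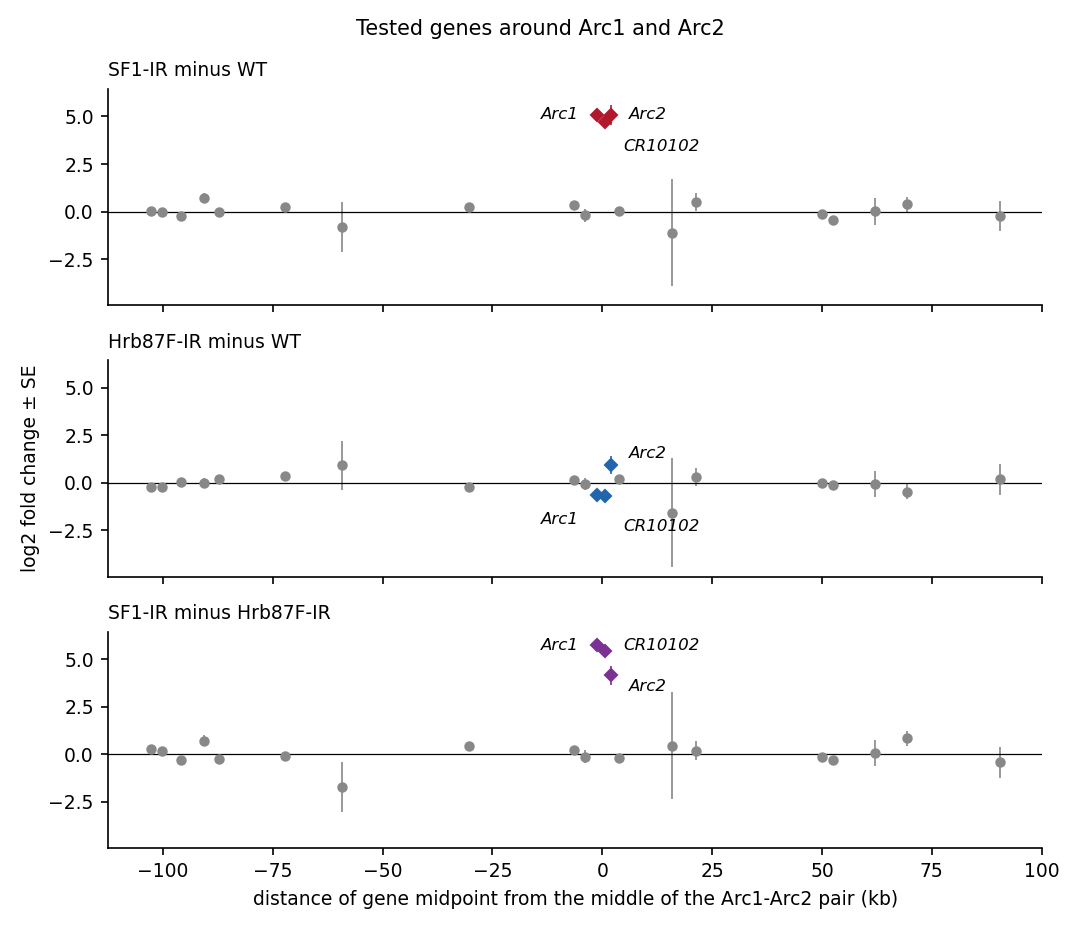
Log2 fold change of each tested gene within 100 kb, with its SE, against the distance of the gene's midpoint from the middle of the pair in kb; coloured diamonds are Arc1, Arc2 and CR10102 and grey points are the 18 other genes. In SF1-IR over WT and in SF1-IR over Hrb87F-IR the 3 diamonds lie above 4 and every grey point lies below 1, while in Hrb87F-IR over WT Arc2, at 0.93, lies just above the highest grey point, at 0.92, and the other diamonds lie among the grey points.

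The absence of an intron sets Arc1 and Arc2 apart from most genes. In the exon table, 4254 of 16428 genes (25.9%) had a single bin. Of 1533 tested single-bin genes outside the Arc locus, 16 (1.04%) were called higher in SF1-IR over WT and 3 (0.196%) were called lower. Of 10217 tested genes with more bins, 130 (1.27%) were called higher and 163 (1.60%) lower, and over all tested genes 1.27% were called higher. In SF1-IR over WT the share of genes called higher was thus close to the background in the single-bin genes. The median log2 fold change there was -0.02 in them and -0.01 in the others. The medians lay further apart in the other comparisons. They were -0.29 in the single-bin genes and -0.01 in the others in Hrb87F-IR over WT, and 0.41 and 0.01 in SF1-IR over Hrb87F-IR.

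The genes most like Arc1 were taken by Pearson correlation of log2 CPM over the 6 libraries. CR10102 came first with r = 0.999, followed by CG14907 (0.997), Coprox (0.996), CG2915 (0.995) and Arp6 (0.995). Coprox, which encodes the haem synthesis enzyme coproporphyrinogen oxidase, had 31.8 and 32.4 CPM in SF1-IR, 9.23 and 9.37 in Hrb87F-IR, compared with 11.3 and 12.1 in WT. CG14907 had 54.7 and 51.3 CPM in SF1-IR, 8.89 and 8.41 in Hrb87F-IR, compared with 9.49 and 10.7 in WT. For both genes SF1-IR was high and Hrb87F-IR was the lowest group, as for Arc1, but their differences were smaller. Arp6, an actin-related protein, shared the shape of the pattern with almost no amplitude, at 11.6 CPM in both SF1-IR libraries, against 10.2 CPM in each of the others.

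For Arc2 the closest genes were Vha100-4 (r = 0.996), CG18179 (0.995), lncRNA:CR44298 (0.993), Sbds (0.993) and Trap1 (0.992). Vha100-4, a subunit of the vacuolar proton pump, had 19.1 and 18.6 CPM in SF1-IR, 7.02 and 7.66 in Hrb87F-IR, compared with 4.35 and 7.14 in WT. Trap1, a mitochondrial chaperone of the Hsp90 family, had 144 and 158 CPM in SF1-IR, 84.4 and 80.6 in Hrb87F-IR, compared with 64.8 and 74.4 in WT. In these genes WT replicate 1 was the lowest library, as in Arc2. The correlation between Arc1 and Arc2 themselves was 0.945, and 186 genes exceeded 0.95 with Arc1 and 156 with Arc2. With 6 libraries in which 1 group of 2 stands apart, such values are common, and they describe a shared shape only.

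Genes of vesicle release and of the transfer of Arc1 particles were then examined, a list that contains the ESCRT machinery, which pinches off vesicles and viral particles, and Rab proteins of the endosome. Of 21 tested members, 0 were called higher and 1 lower in SF1-IR over WT, against 2.68% of all genes, and 6 had an unadjusted p under 0.05. The median log2 fold change of the list was -0.17, beside -0.02 over all genes tested. DESeq2 called 0 higher and 2 lower, against 8.98% of all genes. The counts per gene called 0 higher and 1 lower, against 8.61% of all genes. The member that edgeR called from the exon bins was TSG101, the ESCRT-I subunit that binds retroviral Gag proteins in mammals. TSG101 had 36.3 and 36.4 CPM in SF1-IR, 63.7 and 59.0 in Hrb87F-IR, compared with 63.1 and 58.5 in WT.

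Both SF1-IR libraries lay below all others for TSG101. Its log2 fold change was -0.74 ± 0.10 in SF1-IR over WT (adjusted p = 0.00850) and -0.76 ± 0.10 in SF1-IR over Hrb87F-IR (adjusted p = 0.00905). Both values were close to the threshold, and the adjusted p ran from 0.0317 to 0.0613 for SF1-IR over WT when 1 library was left out, so that the call was lost in 6 of 6 cases, and it was lost with the counts per gene (-0.60, adjusted p = 0.0224). Rab7, of late endosomes, and Rab11, of recycling endosomes, were the most abundant members beside TSG101, with log2 fold changes in SF1-IR over WT of -0.24 ± 0.10 and -0.30 ± 0.10 (adjusted p = 0.260 and 0.140). In Hrb87F-IR over WT, 0 of 21 members were called by edgeR, against 0.0596% of all genes, 1 had an unadjusted p under 0.05, and DESeq2 called 1 lower, against 4.66% of all genes. Rab7, from the counts per gene, had 0.81 in SF1-IR over WT (adjusted p = 0.0150) and was called higher in Hrb87F-IR over WT (1.05, adjusted p = 0.00907), against -0.01 from the exon bins. Of the 21 members, the counts per gene called 1 higher and 1 lower in Hrb87F-IR over WT, against 6.19% of all genes.

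The other genes of the fly that derive from retroelements and were listed here are Gagr, a Gag-derived gene, and Iris, derived from a retroviral envelope gene. Gagr had 3.16 and 5.21 CPM in SF1-IR, 10.04 and 9.88 in Hrb87F-IR, compared with 6.70 and 4.45 in WT. Iris had 0.214 and 0.165 CPM in SF1-IR, 0.350 and 0.357 in Hrb87F-IR, compared with 0.647 and 0.570 in WT. Neither was high in SF1-IR, and neither was called in any comparison in the main edgeR fit. For Gagr the lowest adjusted p of that fit was 0.0620, in SF1-IR over Hrb87F-IR, at a log2 fold change of -1.25 ± 0.30. An edgeR fit with a replicate block and crossed WT numbers, chosen after seeing the data, called Gagr lower in this comparison (adjusted p = 0.00536).

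Arc1 is an activity-regulated gene in neurons, and 11 genes of that class or of calcium signalling were tested. By edgeR, 0 of 11 were called in SF1-IR over WT, against 2.68% of all genes, and 2 had an unadjusted p under 0.05. DESeq2 called 1 lower, against 8.98% of all genes. Their log2 fold changes lay between -0.87 and 0.49, with a median of 0.00. The counts per gene called 2 of the 11 higher in SF1-IR over WT, against 8.61% of all genes, with a median of 0.75. In Hrb87F-IR over WT they called 2 higher, against 6.19% of all genes, with a median of 0.71. kay, the fly Fos gene, had 323 and 288 CPM in SF1-IR, against 306 and 349 CPM in WT, and these groups overlapped. CaMKII, the calcium and calmodulin-dependent kinase, had the lowest value of the list, with 485 and 370 CPM in SF1-IR, 840 and 781 in Hrb87F-IR, compared with 755 and 803 in WT (log2 fold change in SF1-IR over WT -0.87 ± 0.14, adjusted p = 0.0166). From the counts per gene this value of CaMKII was 3.77, in the opposite direction. CaMKII was called in 6 of 9 alternatives other than leaving out 1 library, and the counts per gene were among these. Fmr1, the fragile X RNA-binding protein, had -0.39 ± 0.15 (adjusted p = 0.227). In Hrb87F-IR over WT 0 of the 11 were called by edgeR from the exon bins, against 0.0596% of all genes, and 2 had an unadjusted p under 0.05. DESeq2 called 0 there, against 4.66% of all genes.

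Among 20 tested genes of starvation, insulin signalling and lipid storage, 0 were called higher and 1 lower in SF1-IR over WT, against 2.68% of all genes, and 0 higher and 1 lower in Hrb87F-IR over WT, against 0.0596%. DESeq2 called 3 higher and 2 lower in SF1-IR over WT, against 8.98% of all genes. In Hrb87F-IR over WT it called 0 higher and 2 lower, against 4.66% of all genes. The counts per gene called 4 higher and 0 lower in SF1-IR over WT, against 8.61% of all genes, with a median of 0.51. In Hrb87F-IR over WT they called 2 higher and 0 lower, against 6.19% of all genes, with a median of 0.41. In the exon bins the gene that edgeR called lower was Thor in both cases, the 4E-BP translation inhibitor that is induced by Foxo in starved flies. Thor had 96.4 and 79.5 CPM in SF1-IR, 35.8 and 39.3 in Hrb87F-IR, compared with 178 and 187 in WT. The 3 groups did not overlap, with log2 fold changes of -1.05 ± 0.13 in SF1-IR over WT (adjusted p = 0.00529) and -2.28 ± 0.13 in Hrb87F-IR over WT (adjusted p = 0.00477). With 1 library left out, the call held in 0 of 6 cases for SF1-IR and in 2 of 6 for Hrb87F-IR, with adjusted p of up to 0.0610 and 0.136. From the counts per gene the log2 fold change of Thor in SF1-IR over WT was 0.41, also of opposite sign. In the exon bins Thor, unlike Arc1, was farthest from WT in Hrb87F-IR. From the counts per gene both genes were farther from WT in Hrb87F-IR (Thor -0.80, Arc1 -2.95) than in SF1-IR (0.41 and 2.79).

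The most abundant members beside Thor were kinases of insulin signalling. Pdk1 had 354 and 287 CPM in SF1-IR, 160 and 131 in Hrb87F-IR, compared with 135 and 167 in WT. Its log2 fold change in SF1-IR over WT of 1.08 ± 0.17 missed the threshold (adjusted p = 0.0127). Pdk1 was called in 6 of 9 alternatives other than leaving out 1 library. Akt had 188 and 141 CPM in SF1-IR, against 149 and 178 CPM in WT, and these overlapped (adjusted p = 0.998). Both kinases were, from the counts per gene, called higher in SF1-IR over WT, Akt at 1.40 (adjusted p = 0.00936) and Pdk1 at 1.30 (adjusted p = 0.00963), and the value of Akt in Hrb87F-IR over WT was 0.68, against -0.69 from the exon bins. The median log2 fold change of the 20 genes in the exon bins was -0.09 in SF1-IR over WT and -0.08 in Hrb87F-IR over WT, beside -0.02 and -0.03 over all genes.

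**Figure D3:**
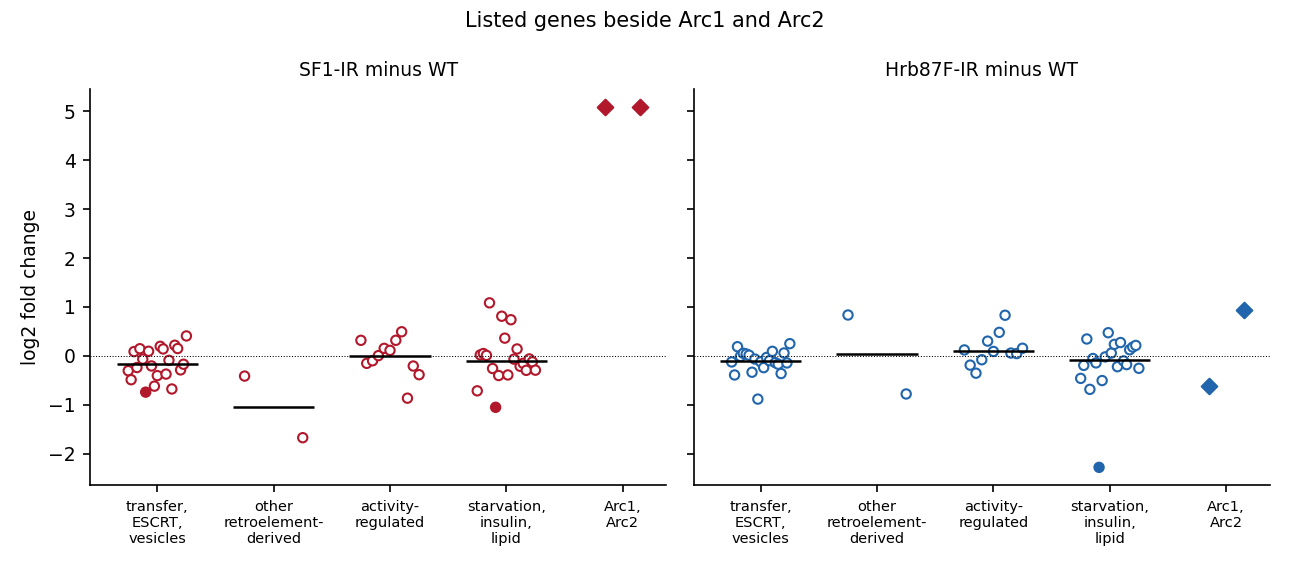
Log2 fold changes in SF1-IR over WT and in Hrb87F-IR over WT for the tested genes of 4 lists (circles, filled where the adjusted p was under 0.01; lines are medians) and for Arc1 and Arc2 (diamonds). The filled circles are TSG101 and Thor, and the highest listed gene in either plot is Pdk1 at 1.08, while Arc1 and Arc2 lie at 5.09 in SF1-IR over WT.

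Arc1 is known from neurons, and nerve, fat body and other tissue adjoin the muscle, so marker lists were set beside it. All 9 neuronal markers had a positive log2 fold change in SF1-IR over WT, with a median of 0.24. In Hrb87F-IR over WT 8 of 9 did, with a median of 0.35. By edgeR none was called, against 2.68% and 0.0596% of all genes, and 2 and 4 had an unadjusted p under 0.05. The counts per gene gave these markers medians of 1.77 and 1.71, with 1 of 9 called higher in each comparison, against 8.61% and 6.19% of all genes. The 7 glial markers summed to 481 to 485 CPM in SF1-IR, 422 to 473 in Hrb87F-IR, compared with 434 to 440 in WT. The 9 fat body markers summed to 313 to 329 CPM in SF1-IR, 245 to 248 in Hrb87F-IR, compared with 259 to 283 in WT, and were thus highest in SF1-IR by a small margin. By edgeR, 2.13% of all genes were called in SF1-IR over Hrb87F-IR. Of 8 tested fat body markers, Lsp2, a larval storage protein, was called higher in SF1-IR over Hrb87F-IR (log2 fold change 0.98 ± 0.10, adjusted p = 0.00332), a call that remained in 2 of 6 fits without 1 library.

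The 12 flight muscle markers summed to 212414 to 223358 CPM in SF1-IR, 205004 to 225866 in Hrb87F-IR, compared with 282252 to 314036 in WT. In the exon bins they were lower in both knockdowns than in WT as summed CPM, while Arc1 was high in SF1-IR only. By edgeR, 0 of the 12 were called in SF1-IR over WT and 0 in Hrb87F-IR over WT, against 2.68% and 0.0596% of all genes. In each comparison 8 had an unadjusted p under 0.05. DESeq2 called 8 lower in SF1-IR over WT, against 8.98% of all genes. In Hrb87F-IR over WT it called 5 lower and 1 higher, against 4.66%. Of the 12 markers, 0 rose in SF1-IR over WT and 1 rose in Hrb87F-IR over WT, sls at 0.67. Medians of this list over WT were -0.45 for SF1-IR and -0.30 for Hrb87F-IR in the exon bins. With the counts per gene they became -0.18 and 0.002, so the lower level in Hrb87F-IR was not seen in that table. The 6 midgut markers summed to 11.0 to 16.4 CPM in SF1-IR, 1.05 to 3.27 in Hrb87F-IR, compared with 6.05 to 12.02 in WT, and the 8 testis markers to 7.50 to 95.3 CPM in SF1-IR, 5.56 to 25.3 in Hrb87F-IR, compared with 3.42 to 124 in WT. The summed CPM of the 4 tracheal, 5 tendon and 6 haemocyte markers differed by at most 1.56-fold, 1.23-fold and 1.14-fold between libraries. No marker of these lists was at 0 in all libraries, and the neuronal markers elav and ChAT were not analysed here. The part of other cells in the Arc1 and Arc2 levels was not tested, and in such bulk samples more cells with the mRNA and more mRNA per cell cannot be told apart.

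The fold changes over WT depended on which deposited table was read. In the counts per gene, Arc1 had 12147 and 14135 counts in SF1-IR, 182 and 282 in Hrb87F-IR, compared with 2190 and 5949 in WT. In CPM of that table these were 363 and 379 in SF1-IR, 5.76 and 8.07 in Hrb87F-IR, compared with 34.8 and 72.5 in WT. The knockdown libraries were thus alike in both tables, whereas Arc1 in WT was several times higher in the counts per gene. Arc2 had 787 and 1000 counts in SF1-IR, 39 and 55 in Hrb87F-IR, compared with 90 and 303 in WT, which came to 23.5 and 26.8 CPM in SF1-IR, 1.23 and 1.57 CPM in Hrb87F-IR, and 1.43 and 3.69 CPM in WT.

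For 328 single-bin genes with at least 50 counts in every library, the exon-bin count was 2.00 times the count per gene in the median of each knockdown library, the ratio that counting both reads of a pair would give. The same median was 0.844 and 0.458 in the WT libraries, where Arc1 had ratios of 0.289 and 0.109. Counts per gene totalled 70664995 and 112295405 in the WT libraries, against 29644449 to 31484532 in the knockdown libraries. The exon bins of the same WT libraries held 72057010 and 64380951 counts. Which table holds the intended WT reads was not tested. In SF1-IR over Hrb87F-IR, where no WT library enters the contrast, the log2 fold change from the counts per gene was 5.74 for Arc1 and 4.16 for Arc2, close to 5.71 and 4.15 from the exon bins.

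**Figure D4:**
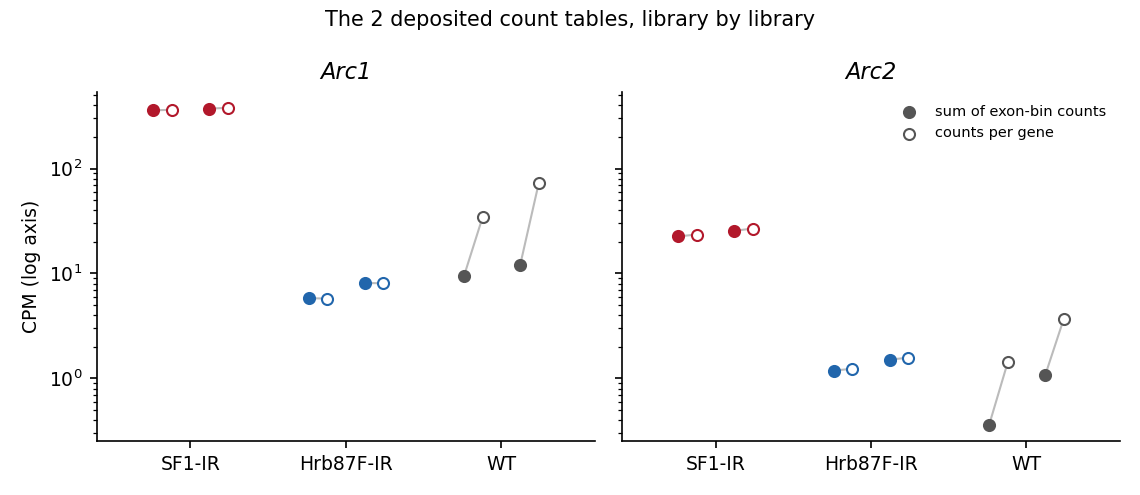
CPM of Arc1 and Arc2 on a log axis, by group and library, from the sum of exon-bin counts (filled) and from the counts per gene (open), with a line joining the 2 values of a library. The 4 knockdown libraries have nearly the same value from both tables, and the WT libraries are higher in the counts per gene, yet all SF1-IR values remain above all others.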

How the data were processed

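Poly A mRNA from IFM at 72 h APF was sequenced in 6 libraries, 2 per group. The authors aligned the reads to BDGP6.22 with STAR 2.7.3a, and featureCounts (Subread 2.0.0) gave the counts. They deposited raw counts per exon bin (77774 bins, 16428 genes) and raw counts per gene (16917 genes), neither normalized. Columns of the authors' own comparisons (fold changes, p-values) were not used. Another 8 per-sample columns matched no sample label and were not used, and 78 broken and 21 repeated lines were dropped.

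Exon-bin counts were summed per gene, and 16072 genes were in both tables. Counts were tested with edgeR 4.0.16 (filterByExpr, TMM, glmQLFit, glmQLFTest, robust; R 4.3.3, limma 3.58.1) in one model of all 6 libraries without covariates. Adjusted p-values are Benjamini-Hochberg values over the genes tested in the fit that gave them. These were 11753 in the main fit and 10764 from the counts per gene. A gene was called at an adjusted p under 0.01. CPM used TMM-scaled totals; correlations used log2 CPM with a prior count of 2. Alternatives were DESeq2 1.42.0, scaling by RLE or upper quartile, the unfiltered genes, a minimum of 10 counts per library, fits of the compared pair alone, a replicate block, the counts per gene and leaving out each library. The fit was tested on simulated data. Figures and summaries were made with Python 3.11.15, numpy 2.4.6, pandas 2.3.3 and matplotlib 3.10.9.

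The members and lists were chosen with earlier results of these data known. Named genes were Arc1 and Arc2, the 3 tested genes nearest on each side, the 5 most correlated genes of each, and, from each list, called members and the 3 of highest mean CPM. The nearest genes were taken outside the pair, and CR10102 was added afterwards. Transcript parts came from the annotation of BDGP6.54, whose gene ends match the deposited bins. The labels do not say that replicates came from separate cultures, so p-values measure only the spread between these samples.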

Additional observations from a re-analysis of the deposited data

How the results depend on the processing

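Arc1 and Arc2 stood higher in SF1-IR than in WT and Hrb87F-IR under every alternative tried. Without 1 library, the log2 fold change in SF1-IR over WT was 4.93 to 5.32 for Arc1 and 4.49 to 6.11 for Arc2, in SF1-IR over Hrb87F-IR 5.54 to 5.97 and 4.03 to 4.34, and in Hrb87F-IR over WT -0.88 to -0.42 and 0.34 to 1.92. The other 8 settings that used the exon bins gave 5.09 to 5.15 for Arc1 and 5.09 to 5.20 for Arc2 in SF1-IR over WT. The counts per gene gave 2.79 for Arc1 and 3.29 for Arc2 in SF1-IR over WT, and -2.95 and -0.87 in Hrb87F-IR over WT.

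Counts of genes called were 315 in SF1-IR over WT, 7 in Hrb87F-IR over WT and 250 in SF1-IR over Hrb87F-IR. In this order they were 1056, 548 and 991 with DESeq2, 765, 228 and 677 with at least 10 counts in each library, 483, 81 and 402 without a filter, 927, 666 and 0 from the counts per gene (1384 of the last comparison with an unadjusted p under 0.05), and 30 and 0 in the first 2 when only the groups compared were fitted. Leaving out 1 library gave 39 to 149, 0 to 7 and 18 to 261, where an arm of 1 library was assumed to vary like the others. With a replicate block they were 45, 0 and 59. The numbers were not taken to pair the samples, since same-numbered libraries deviated in opposite directions for WT with SF1-IR and with Hrb87F-IR (correlations of -0.74 and -0.56), though together for SF1-IR with Hrb87F-IR (0.51), and a replicate block with crossed WT numbers, chosen after seeing the data, gave 823, 277 and 777. The causes were not tested.

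Of 6 calls of listed genes, 6 were lost with the counts per gene, 6 with the replicate block and 3 to 6 without 1 library. Of the same 6 calls, 4 were lost when only the groups compared were fitted and 2 with RLE scaling. DESeq2 and upper quartile scaling lost 0. Under all settings that left out no library, 0 of the 6 were kept. The counts per gene also turned signs. Where either count gave a call, these included Thor (0.41) and CaMKII (3.77) in SF1-IR over WT and Rab7 (1.05) in Hrb87F-IR over WT. Signs also turned without a call from either, as for Rab7 in SF1-IR over WT (-0.24, against 0.81 from the counts per gene). With a prior count of 0.5, 5 of the 5 genes most like Arc1 and 4 of the 5 most like Arc2 were kept. By Spearman's rho 37 and 29 genes tied at 1, so 5 could not be ranked among them. The removal of bins under 30 bases was not run, since each gene is 1 longer bin. Arc2 rests on 24 and 58 counts in WT, which limits its fold changes over WT.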
